A study of Mus musculus with 6 samples.

Results

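The integrated stress response was examined in epididymal white adipose tissue (eWAT), the visceral fat depot beside the testis, of mice with tumor-induced cachexia. The 10 genes followed were Atf4, Atf3, Ddit3, Trib3, Chac1, Asns, Sesn2, Psat1, Phgdh and Fgf21, chosen by name from 54532 genes in the count table as the transcription factors, feedback genes and targets of this pathway. All 10 were found, and 9 of them had enough reads to be tested. Ddit3 has a second entry in the annotation, which held 0 reads in all 6 samples and was not used.

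Cells enter the integrated stress response when kinases that sense unfolded protein, amino acid shortage, heme deficiency or viral RNA phosphorylate the translation initiation factor eIF2α. General protein synthesis then slows, while the mRNA of the transcription factor ATF4 is translated more, so that ATF4 activity is set largely by translation and need not follow the level of its mRNA. ATF4, paired with C/EBP proteins, switches on genes for amino acid uptake and synthesis, for further stress factors such as CHOP (the product of Ddit3) and ATF3, and for the hormone FGF21. In fat, this pathway is known for its link to nutrient shortage and mitochondrial stress.

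RNA-seq was performed on eWAT from male C57BL/6 mice, 3 samples with cachexia and 3 normal controls. Cachexia was induced by subcutaneous inoculation of cells of the mouse lung tumor line LLC in young adult animals, and the fat was taken at a single time, after the tumor-bearing animals had lost weight. The labels name no transgene or knockout. The whole depot was sequenced, so the libraries hold adipocytes together with vessel, stromal and blood cells. Nothing in the labels ties each library to a separate animal in so many words, and p-values measure only the spread between these samples.

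Total counts ran from 14928766 to 18855546 per library, and every cachectic library was smaller than every control library. The first principal component, with 57.6% of the variance, separated the groups. The second, with 16.3%, set control 1 (score 47.2) apart from control 2 (-28.8) and control 3 (-23.3). Adipocyte markers were abundant throughout. In CPM, the counts of a gene scaled to a common library size, their summed level was 26296, 30369 and 33505 in controls 1 to 3, and 43700, 28703 and 37801 in cachexia 1 to 3. Markers of epididymal epithelium, the tissue nearest to this depot, summed to 2.16 CPM on average in controls and 0.956 CPM in cachexia.

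Short stretches of promoter are shown for the 5 genes whose window held the core of the C/EBP-ATF response element, the composite site that ATF4 and its C/EBP partners are known to bind. The letters searched were TGATGNAA, on both strands, in RefSeq windows of 300 bases (250 before and 50 after the start site, build GRCm38.p6), which were found for 10 of 10 genes. Capitals mark the match, each sequence runs 5′ to 3′ on the strand of its gene, and a match on the opposite strand reads as its reverse complement.
Chac1, chr2:119351028-119351077, plus strand: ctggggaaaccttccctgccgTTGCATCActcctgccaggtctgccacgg
Atf3, chr1:191183415-191183464, minus strand: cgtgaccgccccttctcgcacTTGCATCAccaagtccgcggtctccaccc
Fgf21, chr7:45615601-45615650, minus strand: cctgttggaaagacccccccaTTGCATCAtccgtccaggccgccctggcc
Asns, chr6:7693210-7693253, minus strand: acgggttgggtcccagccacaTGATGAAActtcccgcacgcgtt
Trib3, chr2:152344028-152344057, minus strand: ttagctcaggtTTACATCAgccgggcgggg

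The match began 193 bases before the RefSeq start site in Chac1, 139 in Fgf21, 110 in Atf3 and 23 in Asns, and at base 15 from it in Trib3. The annotation of the counts sets other starts, at 191218039 for Atf3, 7693254 for Asns and 152344032 for Trib3. By those starts the Atf3 and Asns matches lie inside the gene, and the Trib3 match lies before it. Of all 32851 promoter windows, 3.97% held these letters. Chac1, Atf3 and Fgf21 carry the same 8 bases, TTGCATCA. No match lay in the windows of Atf4, Ddit3, Sesn2, Psat1 or Phgdh, which says only that these letters are absent there. The CRE letters TGACGTCA, found in 1.79% of all windows, were in none of the 10 genes. The AP-1 letters TGANTCA, found in 7.81%, were in Ddit3 only, 242 bases before its start, and so overlapped no other match. The ERSE letters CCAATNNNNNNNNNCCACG, known from promoters of the unfolded protein response, were found in 0.119% of all windows and in none of the 10 genes. These matches are descriptions of sequence and not measured binding sites.

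Among the 9 genes tested, Chac1, Atf3, Sesn2 and Trib3 rose in cachectic eWAT, Ddit3 fell, and Atf4, Asns, Psat1 and Phgdh did not pass the test. The test was edgeR's quasi-likelihood test with Benjamini-Hochberg adjustment over all 16003 genes tested, at an adjusted p of 0.05. Across those genes 17.6% were called, 9% higher and 8.63% lower, so 5 of 9 here stands against that background. The genes were chosen with earlier results of these data known, so comparisons with all genes are descriptions and not tests. Without control 1, the sample that stood apart, 1 gene was called higher (Chac1) and 1 lower (Ddit3), where 6.73% and 6.63% of all genes were. Without control 2 or control 3 only Chac1 was called by edgeR, where 3.62% and 2.31% of all genes were higher. The groups did not overlap for 6 of the 9 genes, against 40.5% of all genes tested. The median log2 fold change was 0.66 for the 9 genes and -0.00 for all genes. In whole tissue, fewer cells of a type and less RNA per cell cannot be told apart.

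**Figure D1:**
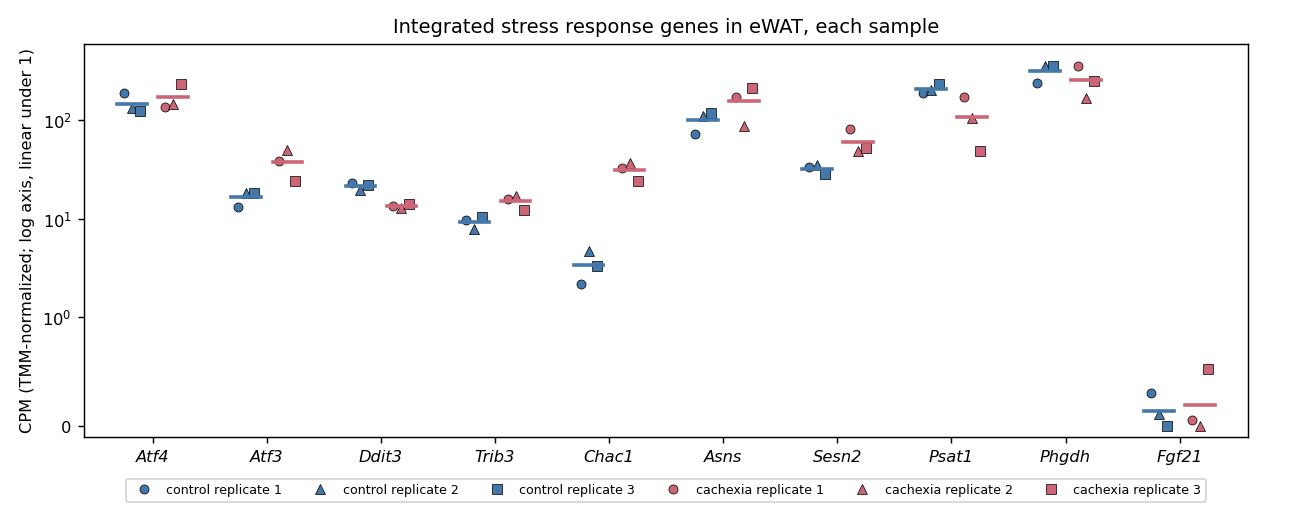
Level of each of the 10 genes in every sample, in CPM (TMM-normalized) on an axis that is logarithmic above 1 and linear below it; symbols are samples and bars are group means (n = 3 each). Chac1 shows the widest gap between the groups, and Atf4, Asns and Phgdh overlap.

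The transcription factors come first. Atf4 (chr15:80255184-80257541, plus strand; file coordinates of build GRCm38) was at 188, 133 and 124 CPM in controls 1 to 3 and at 138, 147 and 235 CPM in cachexia 1 to 3. The groups overlapped, and cachexia 3 was the highest of all 6 samples while cachexia 1 and 2 lay within the control range. Its log2 fold change was 0.22 (SE 0.25, 95% interval -0.36 to 0.80, edgeR adjusted p = 0.574), so no change in Atf4 mRNA was detectable, and neither a decrease nor an increase within that interval can be set aside.

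Atf3 encodes a stress-induced factor of the same bZIP family that ATF4 is known to switch on. It was at 13.3, 18.5 and 18.4 CPM in controls and 39.0, 49.6 and 24.3 CPM in cachexia. Each cachectic sample was above each control, with cachexia 3 nearest to them. The log2 fold change was 1.17 (SE 0.27, 2.25-fold, edgeR adjusted p = 0.0238). Without control 1 the value was 1.03 and lost the call (adjusted p = 0.0616), and it was also lost without control 2, control 3, cachexia 1 or cachexia 2.

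Ddit3 encodes CHOP, the factor best known for cell death under prolonged stress. Its levels were 22.9, 19.5 and 21.8 CPM in controls and 13.4, 12.8 and 14.2 CPM in cachexia. It was the only one of the 9 genes called lower, and the 3 cachectic samples lay close together beneath all controls. The log2 fold change was -0.67 (SE 0.14, edgeR adjusted p = 0.0187). Ddit3 (chr10:127290774-127296288, plus strand) overlaps its empty second entry on the same strand and Mars and Gm4189 on the other. Reads in shared parts may be counted for neither gene. This limit also holds for Sesn2, which overlaps Gm12981 on the same strand. Atf3 overlaps Gm24748 and Psat1 overlaps Gm3329, both on the other strand. The Ddit3 call held without control 1 (edgeR adjusted p = 0.0480) but not without control 2, control 3 or cachexia 2.

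The feedback gene Trib3 encodes a pseudokinase that binds ATF4 and AKT and restrains both. Its level was 9.58, 7.85 and 10.3 CPM in controls and 16.0, 17.0 and 12.3 CPM in cachexia. Again all cachectic samples exceeded all controls, and cachexia 3 was the lowest of them. The log2 fold change of 0.71 (SE 0.20) lay just past the threshold, with an edgeR adjusted p of 0.0476. Without control 1 it was 0.73 with an adjusted p of 0.0809, and leaving out cachexia 3 alone among the 6 samples kept the call.

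Chac1 encodes a γ-glutamylcyclotransferase that breaks down glutathione and is a classical target of the ATF4 branch. Its raw counts were 43, 82 and 58 in controls and 564, 599 and 371 in cachexia. In CPM these were 2.16, 4.70 and 3.29 against 32.9, 36.8 and 24.3. The lowest cachectic sample was above the highest control by a wide margin. The log2 fold change was 3.22 (SE 0.30, 95% interval 2.51 to 3.92), a 9.29-fold rise with an edgeR adjusted p of 0.00156. Chac1 (chr2:119351229-119354381, plus strand) kept its call without each of the 6 samples in turn, with log2 fold changes from 2.97 to 3.53, and without control 1 it was 2.97.

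Sesn2 encodes sestrin 2, a leucine sensor that restrains mTORC1. It was at 33.8, 34.9 and 28.4 CPM in controls and 81.5, 48.9 and 52.1 CPM in cachexia. Here cachexia 1 was the highest, unlike for Atf3, Trib3 and Chac1, where cachexia 2 was. The log2 fold change was 0.91 (SE 0.21, edgeR adjusted p = 0.0250). Without control 1 it was 0.94 (adjusted p = 0.0533), and the call was also lost without control 2 or control 3, but not without any cachectic sample.

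**Figure D2:**
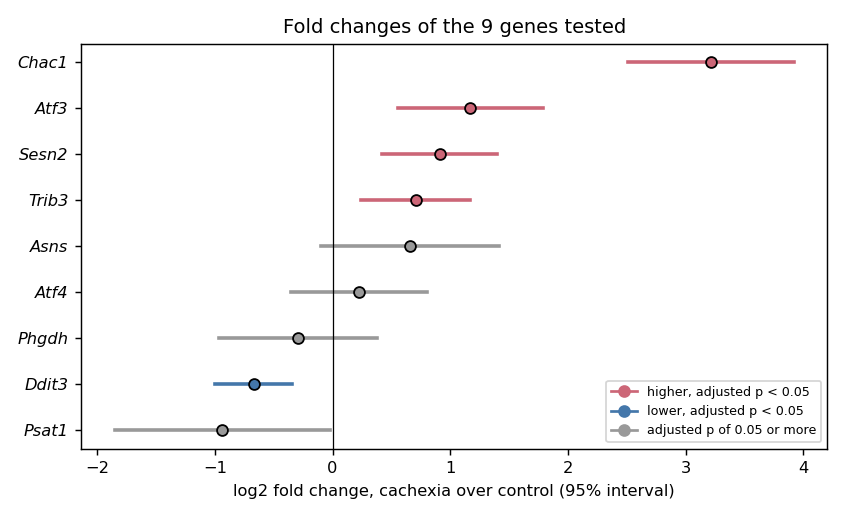
Log2 fold change of cachexia over control for the 9 genes tested, as points with 95% intervals from edgeR; colors give the call at an adjusted p of 0.05. Chac1 lies at 3.22, Ddit3 at -0.67, and the intervals of Atf4, Asns and Phgdh cross 0.

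Across 15 other settings the direction of these 5 calls never changed, and Chac1 kept its call in all of them. Ddit3 and Sesn2 kept it in 12, Atf3 in 10 and Trib3 in 7.

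**Figure D3:**
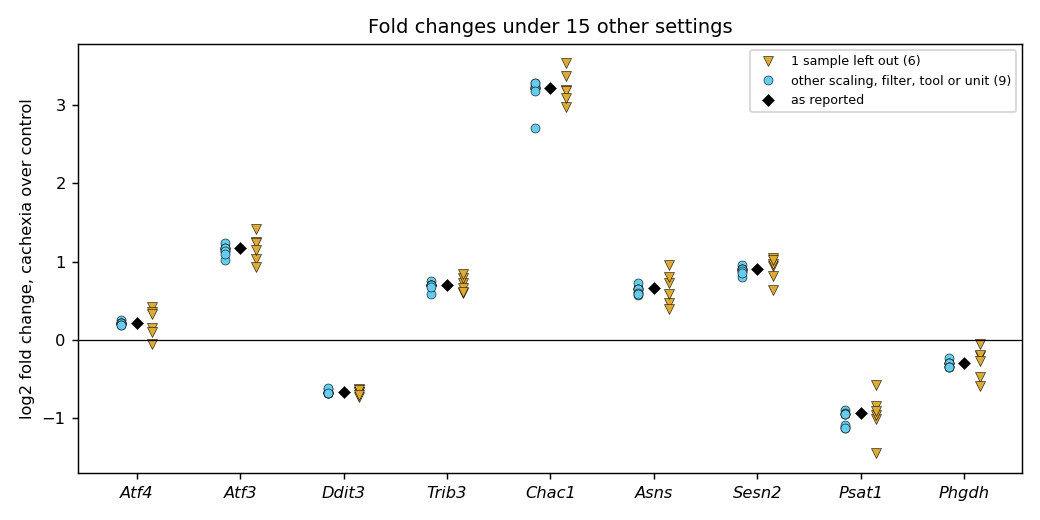
Log2 fold change of cachexia over control for the 9 genes tested, as reported (diamonds), with 1 sample left out (6 triangles) and under 9 other scalings, filters, tools or units (circles). Chac1 ranges from 2.71 to 3.53, and Atf4 crosses 0 with 1 sample left out.

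Asns, Psat1 and Phgdh, the biosynthetic genes among those followed, did not pass the test. Asns encodes asparagine synthetase, which makes asparagine from aspartate and glutamine. It was at 71.9, 110 and 119 CPM in controls and 174, 88.6 and 214 CPM in cachexia. Cachexia 1 and 3 were above all controls and cachexia 2 lay among them. The log2 fold change of 0.66 (SE 0.33, 95% interval -0.10 to 1.42) did not pass (edgeR adjusted p = 0.196), although it passed with cachexia 2 left out (0.95, adjusted p = 0.0457).

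Psat1 and Phgdh encode the second and the first enzyme of serine synthesis. Psat1 was at 189, 202 and 235 CPM in controls and 174, 105 and 48.3 CPM in cachexia. All cachectic samples were below all controls, yet they were spread so widely that the log2 fold change of -0.93 (SE 0.40) did not pass (edgeR adjusted p = 0.139). Without cachexia 1 it was -1.45 and passed (edgeR adjusted p = 0.0401). Without cachexia 3 it was -0.58 and did not pass (edgeR adjusted p = 0.155). An exact two-sided permutation test of log2 CPM gave p = 0.1, which is the smallest that 3 against 3 allows. Phgdh was at 238, 356 and 362 CPM in controls and 357, 169 and 254 CPM in cachexia. These groups overlapped, with a log2 fold change of -0.29 (SE 0.29, edgeR adjusted p = 0.518).

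Fgf21, the hormone of this response, was barely detected. Its counts were 6, 2 and 0 in controls and 1, 0 and 8 in cachexia. Both groups hold a sample at 0, which allows up to 3 counts in that library by counting error alone, and no fold change is given. Of its receptor genes, Klb, the co-receptor β-Klotho, was at 50.5, 99.6 and 107 CPM in controls and 112, 77.7 and 76.1 CPM in cachexia (log2 fold change 0.05, edgeR adjusted p = 0.922).

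Within the cachectic group the genes did not share one order. Among the 4 genes that rose, cachexia 2 was the highest for 3 and cachexia 3 the lowest for 3. Cachexia 3 was however the highest for Atf4 and Asns and the lowest for Psat1. Relative to the control mean on the log2 scale, cachexia 3 was at 0.68 for Atf4, 1.12 for Asns, 0.54 for Atf3 and -2.09 for Psat1. Cachexia 2 stood at 0.01, -0.15, 1.56 and -0.98 for the same genes.

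Compared per transcript length in the deposited FPKM, the order of levels in controls was Phgdh (126 ± 27.6, mean ± SD, n = 3), Atf4 (62.3 ± 14.6), Psat1 (48.5 ± 5.49), Asns (36.3 ± 9.04), Ddit3 (12.3 ± 1.01), Sesn2 (9.20 ± 0.974), Atf3 (7.66 ± 1.35), Trib3 (4.30 ± 0.594), Chac1 (2.04 ± 0.763) and Fgf21 (0.144 ± 0.158). Between neighbors in that order, only Atf4 with Psat1 and Sesn2 with Atf3 had overlapping samples. In cachexia the mean FPKM of Chac1 was 18.7 ± 3.81, the fifth of the order. Its samples overlapped with those of Sesn2 (17.1 ± 5.12), the next in order, and these with those of Atf3 (17.1 ± 5.76). Ddit3, at 7.68 ± 0.378, came next, with all samples below those of Atf3 but overlapping with Trib3 (6.95 ± 1.16).

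Genes around the 10 were counted in 10 lists. The lists too were chosen with earlier results of these data known, so the shares of all genes beside them are only descriptive. Together the lists held 145 tested genes, of which 17 rose and 12 fell, with a median log2 fold change of 0.04. Without control 1, 15 rose and 9 fell, where 6.73% and 6.63% of all genes did. Without control 2 these were 8 and 8, against 3.62% and 4.30% of all genes, and without control 3, 7 and 4, against 2.31% and 2.70%. Of the 29 genes called, 11 kept their call in all 15 other settings: Cebpd, Psph, Slc43a1, Ddit4, Gadd45b, Map1lc3b, Bbc3, Sesn1, Depp1, Deptor and Fgfr2. Each gene is counted once here, and each list below is read against the 9% higher and 8.63% lower of all genes, or against those lower shares where a control is left out. The shares of all genes higher and lower were 6.61% and 5.61% without cachexia 2, 7.25% and 6.92% without cachexia 3, 5.71% and 6.05% with the replicate block and 9.56% and 10% by DESeq2. At an unadjusted edgeR p under 0.05 they were 17.4% and 17%, and the counts below by these settings are read against them. Of the 29 called genes, 19 overlap another annotated gene, and reads in shared parts may be counted for neither.

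**Figure D4:**
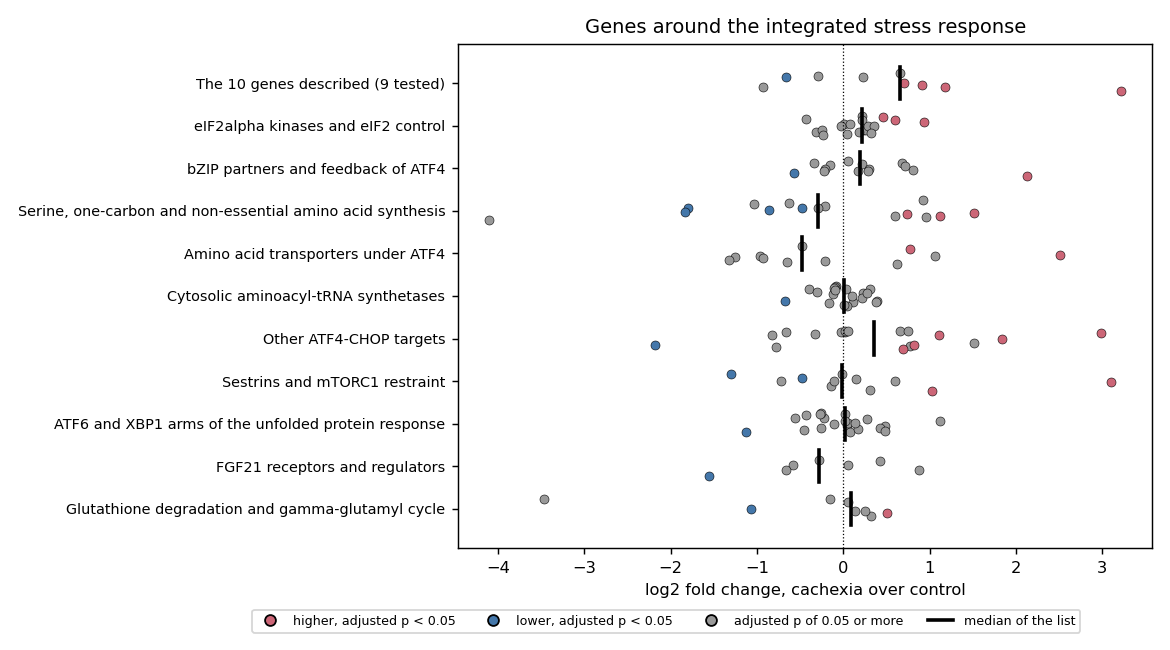
Log2 fold change of every tested gene in the 10 genes described and in 10 lists around them; each point is a gene, colored by its call at an adjusted p of 0.05, and black bars are list medians. The lists of tRNA synthetases and of the ATF6 and XBP1 arms have medians of 0.01 and 0.02 with 1 call each, a count that becomes 2 and 4 lower without cachexia 3.

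Of 19 genes for the eIF2α kinases and the control of eIF2, 3 rose and 0 fell by edgeR. They were Ppp1r15a, whose product GADD34 brings a phosphatase to eIF2α and ends the response (35.1, 35.9 and 22.8 CPM in controls, 53.7, 52.6 and 73.0 CPM in cachexia; log2 fold change 0.93, edgeR adjusted p = 0.0237), and the eIF2B subunits Eif2b1 (0.60) and Eif2b5 (0.46). The groups did not overlap for Ppp1r15a. By DESeq2 0 genes fell as well, and at an unadjusted p under 0.05 edgeR had 1 lower. The 3 higher calls became 1 without control 1 and 0 without control 2, without control 3 or with the replicate number as a block. No kinase gene passed: the log2 fold change was -0.25 for Eif2ak3 (PERK, the sensor of unfolded protein), 0.24 for Eif2ak4 (GCN2, the sensor of uncharged tRNA), -0.32 for Eif2ak2 (PKR) and 0.05 for Eif2ak1 (HRI). Kinase activity is set by phosphorylation and was not measured here.

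Among 14 bZIP partners and feedback genes, Cebpd rose and Atf5 fell by edgeR. By DESeq2, and at an unadjusted edgeR p under 0.05, 4 were higher and 1 lower, and with the replicate block 2 were higher. Cebpd, a C/EBP factor of the acute phase and of early fat cell differentiation, was at 52.0, 55.7 and 47.3 CPM in controls and 137, 175 and 366 CPM in cachexia (log2 fold change 2.13, edgeR adjusted p = 0.00807). Atf5, the relative of ATF4 tied to mitochondrial stress, was at 89.6, 101 and 79.3 CPM in controls and 56.3, 65.6 and 59.6 CPM in cachexia (log2 fold change -0.57). The groups were separate for both genes. Cebpd kept its call in all 15 other settings, and Atf5 in 9, losing it under library totals and without control 1, control 2, control 3, cachexia 1 or cachexia 3.

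In the list of serine, one-carbon and non-essential amino acid synthesis, 3 of 15 genes were higher and 4 lower, with a median of -0.30. Without control 2 these were 1 and 3, without control 3, 0 and 1, and without cachexia 2, 2 and 2. Psph, the last enzyme of serine synthesis after Phgdh and Psat1, fell from 27.0, 32.5 and 33.2 CPM to 10.9, 7.80 and 7.93 CPM (log2 fold change -1.80, edgeR adjusted p = 0.00199). Mthfd2, the mitochondrial folate enzyme and a usual ATF4 target, fell from 30.5, 12.1 and 15.5 CPM to 4.14, 4.05 and 8.13 CPM (-1.83). The cytosolic folate enzyme Mthfd1 (-0.48) and Cth, which makes cysteine from cystathionine (-0.86), also fell.

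On the other side, Shmt1, the cytosolic serine hydroxymethyltransferase, rose from 3.76, 6.25 and 3.34 CPM to 13.8, 11.2 and 13.0 CPM (log2 fold change 1.51). Glul, glutamine synthetase, rose by 1.12 and Pck2, mitochondrial PEP carboxykinase, by 0.74. Groups did not overlap for any of these 7 genes. Psph kept its call in all 15 other settings, Shmt1 in 14, Cth in 13, Mthfd2, Pck2 and Glul in 12 each and Mthfd1 in 8. The mitochondrial form Shmt2 was at 27.5, 20.6 and 18.0 CPM in controls and 19.4, 18.7 and 18.8 CPM in cachexia and did not pass (-0.22).

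**Figure D5:**
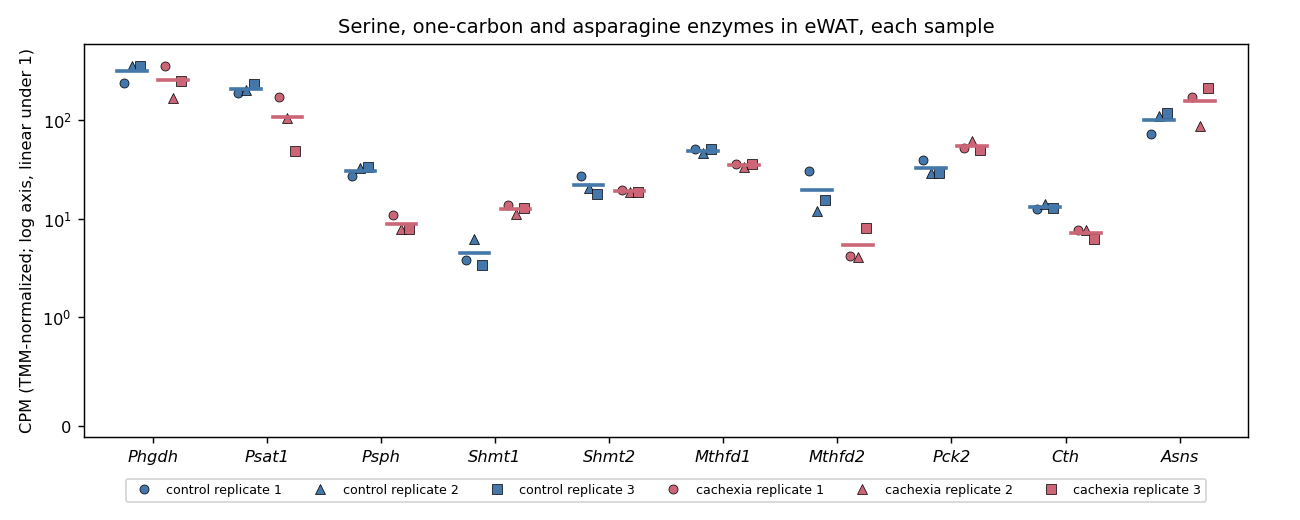
Level of 10 enzymes of serine, one-carbon, cysteine and asparagine synthesis in every sample, in CPM (TMM-normalized) on an axis that is logarithmic above 1; bars are group means (n = 3 each). Psph and Mthfd2 lie lower in all 3 cachectic samples and Shmt1 and Pck2 higher.

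Of 11 amino acid transporters, 2 rose and 0 fell by edgeR, against 3 and 2 by DESeq2 and 3 and 4 at an unadjusted edgeR p under 0.05. By edgeR without cachexia 3, 2 were higher and 2 lower, and with the replicate block 1 was higher and 1 lower. Slc43a1, a carrier of branched-chain amino acids, was at 19.3, 42.0 and 35.4 CPM in controls and 148, 195 and 208 CPM in cachexia (log2 fold change 2.51, edgeR adjusted p = 0.00276). Slc3a2, the heavy chain shared by several amino acid exchangers, rose by 0.77, a call lost without control 2, without control 3 and with the replicate block. Its light chain partners Slc7a11 (-0.48) and Slc7a5 (-1.26) did not pass, and Slc7a5 was at 40.5 CPM in control 1 but at 7.74 and 10.6 CPM in the other controls. In the list of cytosolic tRNA synthetases, 21 genes tested that include the tRNA exporter Xpot, only Aars, for alanine, was called, with a log2 fold change of -0.67, and it lost the call without control 3. Without cachexia 3, and by DESeq2, 2 genes were lower. None was higher by edgeR, against 1 by DESeq2 and 4 at an unadjusted edgeR p under 0.05.

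The list of other ATF4 and CHOP targets held 5 genes that rose and 1 that fell, out of 18. The 18 include Atf6b and Rnf5, which are not established targets and did not pass. Ddit4, whose product REDD1 restrains mTORC1, was at 46.2, 26.2 and 22.6 CPM in controls and 157, 289 and 309 CPM in cachexia (log2 fold change 2.99, edgeR adjusted p = 0.00306). Gadd45b (1.84), the autophagy gene Map1lc3b (1.10), Eif4ebp1 (0.82), whose product holds back cap-dependent translation, and the autophagy receptor Sqstm1 (0.69) rose as well. Bbc3, the cell death gene for PUMA and a target of CHOP, fell from 18.8, 22.5 and 24.1 CPM to 4.96, 5.71 and 3.67 CPM (-2.19, edgeR adjusted p = 0.00164). The higher calls were 3 without control 1, control 2 or control 3 and with the replicate block, where Eif4ebp1 and Sqstm1 lost theirs. The lower calls were 2 by DESeq2, without cachexia 2 or cachexia 3, and with no filter, where 4.63% of all genes were lower. At an unadjusted edgeR p under 0.05, 7 of the list were higher and 4 lower.

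The list of sestrins and restraints on mTORC1 held 2 genes higher and 2 lower of 11. Among the higher genes, Depp1 is not an established restraint on mTORC1. By DESeq2 2 were higher and 3 lower. Sesn1 rose by 1.03, while the third sestrin, Sesn3, had a log2 fold change of -0.72 that did not pass (edgeR adjusted p = 0.0575), with groups that did not overlap. Depp1, a gene known as a FOXO target, was at 37.9, 56.6 and 46.6 CPM in controls and 273, 484 and 457 CPM in cachexia (log2 fold change 3.10). Deptor, a subunit that inhibits mTOR, fell (-1.30), and so did the arginine sensor relative Castor2 (-0.47), which kept its call in only 3 of the 15 other settings.

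The parallel arms of the unfolded protein response, under ATF6 and XBP1, held 0 genes higher and 1 lower of 21 by edgeR, the same by DESeq2, and 1 and 3 at an unadjusted edgeR p under 0.05. The gene that fell was Edem1 (-1.13), which sends misfolded glycoproteins to degradation, and its call was lost without control 3. Without cachexia 3, 4 genes of the list were lower. Hspa5, the chaperone BiP, was at 593, 514 and 532 CPM in controls and 330, 309 and 551 CPM in cachexia (-0.46, edgeR adjusted p = 0.221), and Xbp1 was at 0.48 on the log2 scale without passing. For FGF21 receptors and regulators, 1 of 7 genes was called, Fgfr2 (-1.56), whose span in the annotation covers parts of 69 other genes on both strands, so that its reads may be incompletely counted. Without control 1, 1 gene of this list was higher and 1 lower. Without cachexia 1, 0 were higher and 2 lower, against 6.22% and 5.9% of all genes. In the glutathione list, Ggt5, a γ-glutamyl enzyme, rose (0.51), while Chac2, the constitutive relative of Chac1, fell from 8.83, 11.2 and 10.9 CPM to 5.07, 4.42 and 5.18 CPM (-1.07, edgeR adjusted p = 0.0151). Ggt5 kept its call in 8 of the 15 other settings, losing it without each control, without cachexia 1 or 3, with the replicate block and for log2 FPKM with a pseudocount of 1. Chac2 lost its call without control 2 or control 3.

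Markers of other cells also moved with cachexia. Of 12 neutrophil markers, 10 passed the filter, and 9 of these rose. A gene can pass the filter through the cachectic group alone, and such a gene could hardly be called lower. The neutrophil count, and the erythroid count below, may thus be partly set by the filter. The sum over the 12 listed went from 33.4, 50.6 and 34.7 CPM to 290, 265 and 758 CPM. S100a9 was the most abundant, and Ly6g was at 0 in all controls. Erythroid markers rose for 7 of 7 genes tested. Their mean sum over the 8 listed went from 327 to 2257 CPM, most of it Hbb-bs. Endothelial markers rose for 3 of 8 genes, their sum going from 1650, 1621 and 1564 CPM to 2753, 3361 and 2236 CPM, with Pecam1 the most abundant.

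Among those cachectic samples, cachexia 3 had the most neutrophil marker RNA and the least endothelial marker RNA, while its Chac1, Atf3 and Trib3 were the lowest of the group. Sesn2 was lowest in cachexia 2, which also had the least erythroid marker RNA (2864, 1337 and 2569 CPM in cachexia 1 to 3). Other marker sums had their extremes in these samples too. Cachexia 2 had the least neutrophil, adipocyte, mesothelial and epididymal marker RNA, and the most endothelial, macrophage, liver, and T and B cell marker RNA. Cachexia 3 had the least macrophage, fibroblast, and T and B cell marker RNA and the most mesothelial marker RNA. Fibroblast markers fell for 4 of 9 genes and rose for 1, from a mean sum of 5857 to 2942 CPM, with Dcn the most abundant in the list. Macrophage markers had 1 gene higher and 1 lower of 10 (mean sum 1634 and 1489 CPM). Mesothelial markers had 0 of 7 and T and B cell markers 0 of 8 called by edgeR, with 1 and 4 lower at an unadjusted p under 0.05. At that p, 1 macrophage marker was higher and 3 lower, 6 endothelial and 0 lower, 1 fibroblast and 5 lower, and 2 adipocyte and 2 lower. Marker counts are read against 9% higher and 8.63% lower of all genes, or 17.4% and 17% at the unadjusted p. Adipocyte markers had 2 genes higher and 1 lower of 10. Liver markers had 1 higher and 1 lower of 5 tested. Of the sum over the 6 listed, 99.6% was Cyp2e1, which fat also expresses. The part of these cells in the changes of Chac1, Atf3, Sesn2, Trib3 and Ddit3 was not tested.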

How the data were processed

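Total RNA from eWAT was sequenced, and reads were counted per gene by the authors with featureCounts 1.5.0-p3, per the labels. Whole-number counts and FPKM (fragments scaled to gene length and library size) were deposited for 54532 genes. A table of the authors' own fold changes and p-values (DESeq2 1.16.1), with 8 further columns of per-sample or mean values, was not used. The submitters' processing notes name mm9, but 98.3% of gene coordinates shared with GENCODE M21 were identical to it, so coordinates are given as GRCm38.

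Counts were filtered (filterByExpr), scaled by TMM and fitted in edgeR 4.0.16 (R 4.3.3, limma 3.58.1, DESeq2 1.42.0 for alternatives), with group as the only term. The fit was tested on simulated data. Permutation tests used log2(CPM + 0.5), and log2 FPKM alternatives used pseudocounts of 1 and 0.1. Leaving out samples, other scalings, filters and tools made 15 alternatives. The genes named were the 10 followed, up to 4 genes per list and direction by smallest p among those called (Eif4ebp1, beyond that rule in its list, was added so that all calls are shown), and the most abundant markers per cell type. Other genes named without a call, among them the kinases, Klb, Sesn3, Xpot, Atf6b, Rnf5, Shmt2, Slc7a5, Slc7a11, Hspa5 and Xbp1, were chosen after their values were seen. The genes and lists were chosen with earlier results of these data known. Standard errors and intervals of fold changes come from the edgeR fit and include the spread between samples, whereas the limit given for a count of 0 covers counting error only.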

Additional observations from a re-analysis of the deposited data

How the results depend on the processing

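Of the 15 alternatives, Chac1 passed in 15, Ddit3 and Sesn2 in 12, Atf3 in 10 and Trib3 in 7. Asns passed in 1 (without cachexia 2) and Psat1 in 1 (without cachexia 1, log2 fold change -1.45, adjusted p = 0.0401), and Atf4 and Phgdh in 0 of the 15 by any of edgeR, limma or DESeq2. Of the genes followed, Atf4 changed direction, to -0.056 without cachexia 3 (-0.056 to 0.43 with 1 sample left out). So did the uncalled Eif2ak1 (-0.0056 to 0.13 with 1 sample left out) and Klb (-0.22 to 0.24, below 0 without control 1 or cachexia 1). Leaving out 1 sample gave 382 to 1197 genes higher and 446 to 1142 lower, 1 to 4 of the 10 genes higher and 0 to 2 lower, and 7 to 17 list genes higher and 4 to 17 lower. The counts were lowest for all genes without control 3. With the replicate number as a block, 913 genes rose and 968 fell, 10 list genes rose and 12 fell, and 3 of the 10 genes rose (Trib3 was lost) and 1 fell. Nothing in the labels says that same-numbered samples belong together. Their deviations from the group means correlated at -0.00, -0.01 and 0.01, which does not show whether they shared a litter or day. Library totals and no filter each also lost Trib3. The cause of these changes was not tested. With 3 samples per group, a biological coefficient of variation of 0.264 limits what can be called, and Fgf21 fell under the filter.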

Other observations

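Control 1 stood apart from the other controls in several list genes, named here after their values were seen. Bcat1, a branched-chain aminotransferase, was at 33.3 CPM in control 1 and at 2.06 and 2.89 CPM in controls 2 and 3, against 1.11, 0.184 and 0.918 CPM in cachexia. Ggt1, a γ-glutamyltransferase, was at 37.4 CPM in control 1 and at 0.0573 and 0.0567 CPM in the others. Fgfr4, an FGF receptor, was at 18.1 CPM in control 1, 0 in control 2 and 0.113 CPM in control 3. Epididymal epithelium markers summed to 4.31 CPM in control 1, and to 1.03 and 1.13 CPM in controls 2 and 3.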
